A study of Gallus gallus with 24 samples.

Results

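The 129 genes with the most reads in interdigital region 3 of the chicken hindlimb are described here. They were chosen by 1 value, a mean above 1000 CPM (counts per 1000000 reads) over all 24 libraries, and they are 129 of the 30108 genes in the deposited table, or 0.428%. The region is the tissue between neighbouring digits of the embryo's foot. It was sampled at 7 days of incubation plus 4, 6, 8 or 11 hours, in 6 libraries per time, and the labels give no treatment other than the hours and no strain or sex. Whether the libraries stem from separate embryos is not stated in the labels, and the p-values below therefore measure only the spread between these samples, which may be technical. The level itself, the share of reads and the rank order were fixed by how the genes were chosen and are given without a test. The 4 times played no part in that choice, so differences between them were tested.

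The tissue between the digits is a mesenchyme that is removed by programmed cell death under BMP signalling while the digits become free. In most tissues a small number of genes supplies a large part of the messenger RNA. These are commonly the genes for ribosomal proteins, translation factors, cytoskeletal and matrix proteins, and the transcripts of the mitochondrial genome. Which of these are among the 129 members is not known here. The members carry Ensembl identifiers. None of these occurs in the reference table used for names (25635 genes, all listed under other identifiers), and 0 of 129 members could be paired with a name, a role or a sequence. For the same reason the tissue could not be checked against its marker genes. CPM are reads and were not divided by transcript length, so the order of the members is an order of reads, not of molecules.

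Depth was 690847 to 8134730 reads per library (median 4425351). Of the 24 libraries, 3 lay under 1000000 reads: 6 h replicate 5 with 747982, 8 h replicate 2 with 894326 and 8 h replicate 5 with 690847. The fewest reads behind any member in any library were 445. Replicate 3 at 4 h, with 3325712 reads, stood apart in the members themselves and is given with and without below. The labels number the libraries, and the numbers were parted here into a lower and an upper range, a division the labels do not make. All libraries of 4 h and 11 h fall in the lower range, and 10 of the 12 libraries of 6 h and 8 h in the upper range. In the first and the last step of the course, time and library number cannot be told apart for most libraries.

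The members took a summed share of 50.8% of all reads on average over the 24 libraries, with a range of 44.6% to 54.2%. By time the share was 49.8% ± 2.44 (4 h), 50.3% ± 3.32 (6 h), 50.9% ± 2.16 (8 h) and 52.0% ± 1.08 (11 h), as mean and SD of 6 libraries. The means at 11 h and 4 h differ by less than the SD at 4 h but by more than the SD at 11 h. The ranges of all 4 times overlap. In a bulk sample, fewer cells of a type and less RNA per cell cannot be told apart. The lowest shares were 44.6% in replicate 5 at 6 h and 45.3% in replicate 3 at 4 h. The 3 libraries under 1000000 reads averaged 47.1% ± 2.28 (SD, n = 3), against 51.3% ± 1.94 in the other 21 libraries (SD, n = 21). Without replicate 3 the mean at 4 h was 50.7% ± 1.25 (SD, n = 5). The 11 h mean then lay above it by more than the SD of either time, with ranges that still overlapped. Whether depth or that library had a part in the order of the 4 means was not tested.

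**Figure D1:**
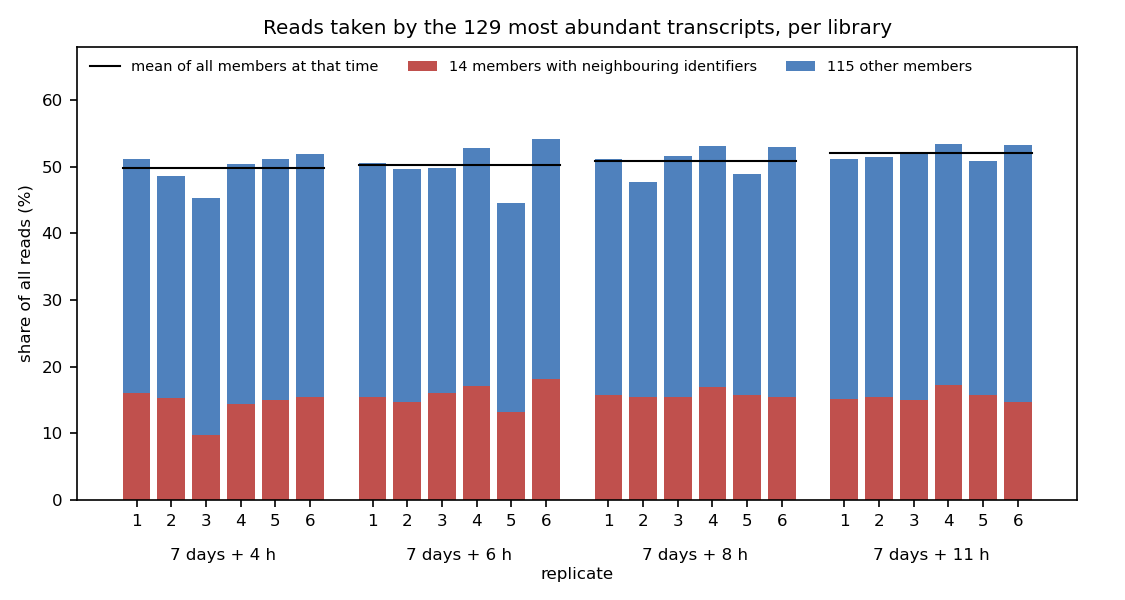
Share of all reads (%, from 0) taken by the 129 members in each library, by time and replicate; red is the 14 members with neighbouring identifiers, blue the 115 other members, and black lines are the means at each time. The bars reach 44.6% to 54.2%, and the red part is shortest in replicate 3 at 4 h, at 9.72%.

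The number of genes needed to reach 50% of the reads of a library was between 94 and 193 (median 117.5). It ran from 111 to 184 genes (median 121) in the libraries of 4 h, from 94 to 193 (median 126.5) in those of 6 h, from 103 to 152 (median 116) in those of 8 h and from 100 to 119 (median 113) in those of 11 h. The largest numbers were 193 in replicate 5 at 6 h and 184 in replicate 3 at 4 h, the 2 libraries with the lowest member shares. Of the members, 109 were above 1000 CPM in all 24 libraries and 20 were at or below it in at least 1. A further 30 genes reached it in some library without being members.

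Within the set, reads were concentrated at the top. The mean exceeded 10000 CPM in 8 members, 5000 CPM in 24 and 2000 CPM in 87, and 42 members lay between 1000 and 2000 CPM (median of the 129 means, 3046 CPM). The 10 highest members together took 11.7% to 17.8% of the reads of a library. The members just inside the threshold were ENSGALG00010027131 at 1010 CPM, ENSGALG00010002817 at 1005 CPM and ENSGALG00010007926 at 1004 CPM. The genes just outside it were ENSGALG00010027386 at 997 CPM, ENSGALG00010004003 at 974 CPM and ENSGALG00010007302 at 966 CPM. The 3 inside were above 1000 CPM in 12 to 14 of the 24 libraries and the 3 outside in 7 to 9.

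The order at the top was nearly fixed. ENSGALG00010000017 averaged 29281 ± 3908 CPM (SD, n = 24; lowest 20479, median 28900, highest 36972), or 2.93% of all reads. It was the highest gene in 22 libraries, and ENSGALG00010000024 was the highest in the other 2, replicate 5 at 4 h and replicate 6 at 11 h. ENSGALG00010000024 averaged 24896 ± 2372 CPM (SD, n = 24; lowest 17984, median 24853, highest 30419). These 2 genes held ranks 1 and 2 between them in every library.

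ENSGALG00010000023 averaged 20239 ± 2712 CPM (SD, n = 24; 10588 to 24318) and never ranked below 5. ENSGALG00010000020 averaged 14977 ± 1686 CPM (SD, n = 24; 10396 to 17720) and ranked 4 to 6. The next 4 were ENSGALG00010001525 at 13830 ± 547 CPM, ENSGALG00010001032 at 11866 ± 1860 CPM, ENSGALG00010000007 at 11217 ± 1487 CPM and ENSGALG00010000018 at 10800 ± 1286 CPM (SD, n = 24 each). Apart from the gap between the first 2 of these 4, neighbours in this stretch differ by less than their spread, and their ranks overlap. ENSGALG00010000034 (9948 ± 1207 CPM) and ENSGALG00010009113 (7986 ± 652 CPM; SD, n = 24 each) complete the 10 highest. All 10 were among the 10 highest genes of 15 libraries, and at least 8 were in each of the others.

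**Figure D2:**
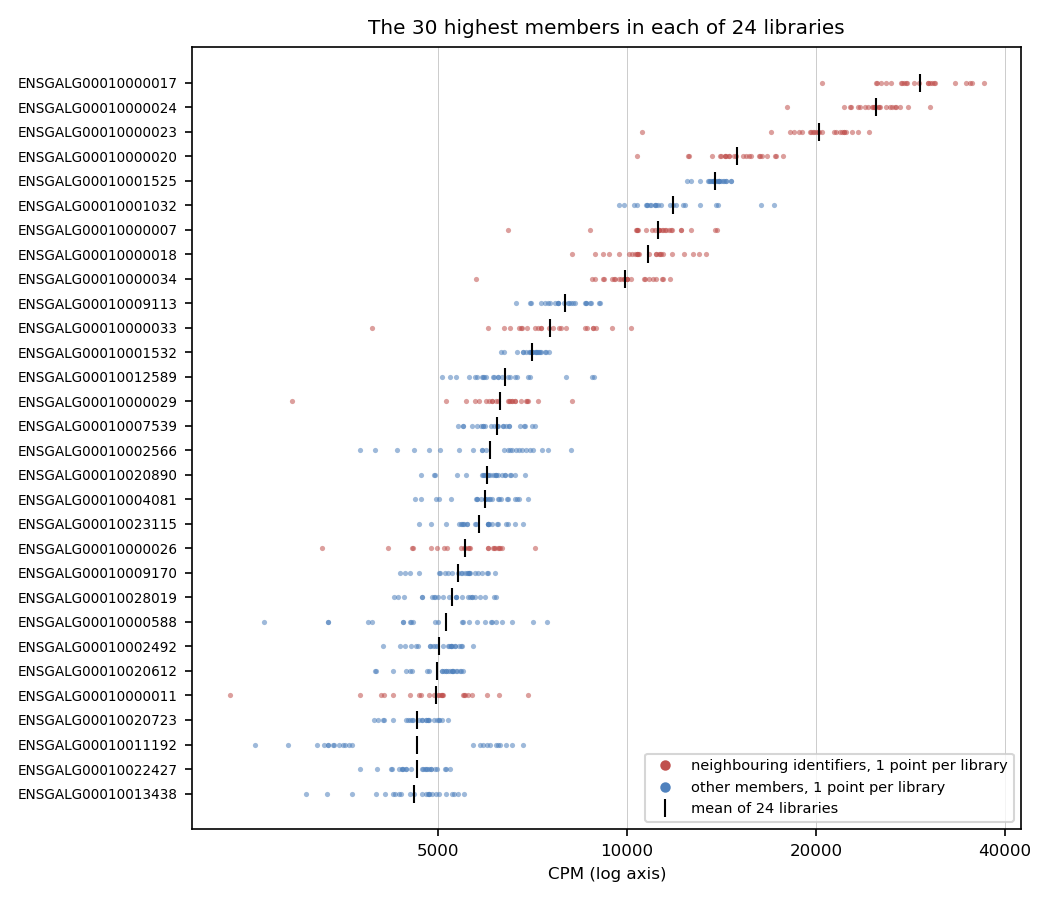
CPM (log axis) of the 30 highest members, highest at the top, with 1 point per library and a black bar at the mean of 24 libraries; red marks members with neighbouring identifiers, blue the others. ENSGALG00010001525 has the tightest row among the 10 highest, and several red rows have a lone point on the left, replicate 3 at 4 h.

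The order of the whole set was also much the same from library to library. The Spearman correlation across the 129 members was 0.865 to 0.988 over all pairs of libraries (median 0.956). The median was 0.957 for the 60 pairs of one time and 0.955 for the 216 pairs of different times. Members are not independent of each other, so this is a description of the order and carries no p. The lowest value was that between replicates 2 and 3 at 4 h. Replicate 3 at 4 h also had the lowest median correlation with the other libraries, 0.917. Of the 129 highest genes in a library, 120 to 126 were members.

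The upper end of the order belonged largely to genes whose identifiers follow each other. A run of 37 genes, from ENSGALG00010000002 to ENSGALG00010000038, has consecutive numbers and consecutive rows in the table, and 14 of the 37 are members. They include the 4 highest members and 7 of the 10 highest. This grouping was noticed after the values were seen, and the sources used here do not say what the run stands for. The 14 took 15.4% of all reads on average, which is 30.3% of the reads of all members. The other 23 genes of the run averaged 6.86 to 723 CPM each and 0.290% of all reads together.

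The 14 members of the run took 14.3% ± 2.33 (4 h), 15.7% ± 1.75 (6 h), 15.8% ± 0.593 (8 h) and 15.6% ± 0.884 (11 h) of the reads, as mean and SD of 6 libraries. Replicate 3 at 4 h had 9.72%, and the other 23 libraries had 13.1% to 18.1%. Without it the mean at 4 h was 15.3% ± 0.613 (SD, n = 5), which differs from each of the other 3 means by less than their SD. Of the 14, 12 had their lowest CPM of all libraries in that replicate, against 4 of the 115 other members. The 115 other members took 35.6% there, within their range of 31.4% to 38.5% over all libraries, so the low total of this library lay in the run. By time, the 115 took 35.4% ± 1.15 (4 h), 34.5% ± 1.72 (6 h), 35.1% ± 1.97 (8 h) and 36.5% ± 1.12 (11 h), again as mean and SD of 6 libraries. Their share was 32.3% ± 0.885 in the 3 libraries under 1000000 reads and 35.8% ± 1.12 in the other 21 (SD), so the low totals of the shallow libraries lay mainly outside the run.

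How far members varied between libraries depended on the scaling. On the CPM as deposited, the SD of log2(CPM + 1) within times had a median of 0.15 over the members, against 0.23 over the 1081 genes at 100 to 1000 CPM. After scaling by TMM, a trimmed mean of log ratios that is set by the bulk of the genes, the medians were 0.23 for members and 0.25 for those genes. The factors ran from 0.904 to 1.22, and the 4 highest belonged to the 3 libraries under 1000000 reads and to replicate 3 at 4 h, where the members' share was low. Counting error alone would give a median SD of 0.017 for the members on this log2 scale. The SD after scaling was at least 3.44 times what counting gives for each of the 129 members. The highest CPM of a member was a median of 1.54 times its lowest. It was under 1.5 times in 59 members, under 2 times in 104 and over 3 times in 6.

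**Figure D3:**
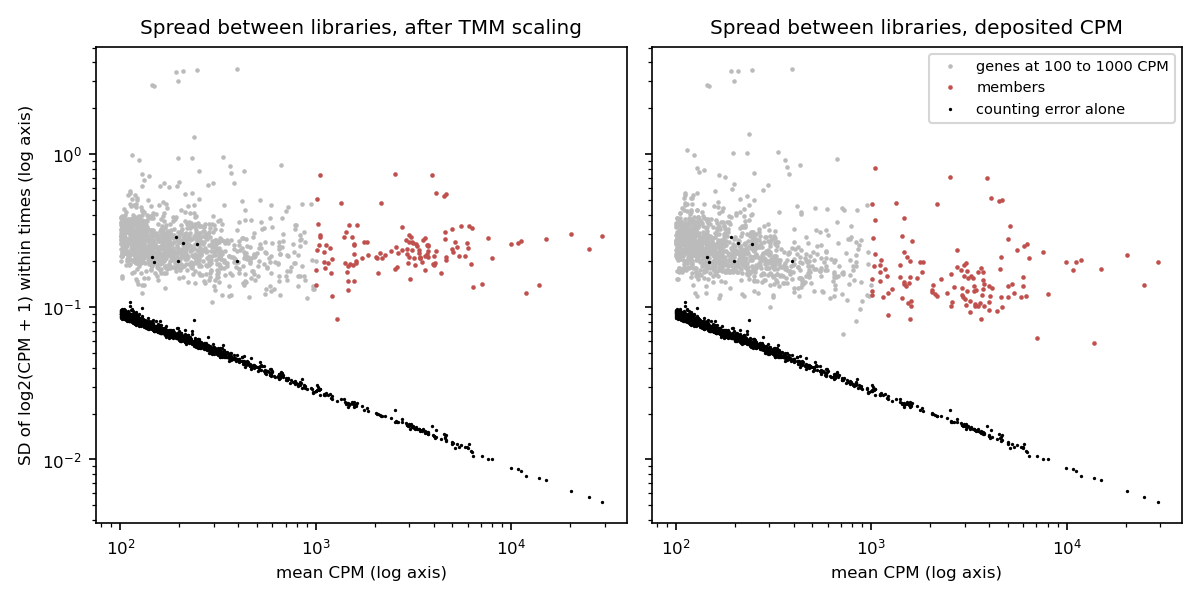
SD of log2(CPM + 1) within times (log axis) against mean CPM (log axis), after TMM scaling on the left and for deposited CPM on the right; red is the members, grey the genes at 100 to 1000 CPM, black the SD that counting reads alone would give. All members lie well above the black line, and the red cloud sits lower on the right.

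The members with the smallest SD after scaling were ENSGALG00010007011 (SD 0.08 on the log2 scale, mean 1283 CPM), ENSGALG00010004281 (0.12, 1212 CPM) and ENSGALG00010001032 (0.12, 11866 CPM). Before scaling, their SDs were 0.13, 0.09 and 0.20, the last above the members' median of 0.15. ENSGALG00010001032 had its highest deposited values, 17130 and 16352 CPM, in replicates 2 and 5 at 8 h, both under 1000000 reads. On deposited CPM the smallest were those of ENSGALG00010001525 (0.06) and ENSGALG00010001532 (0.06), whose CPM had a coefficient of variation of 3.95% and 4.21% over the 24 libraries. These last 2 genes were singled out after their values were seen. Their ratio was 1.96 ± 0.019 (SD, n = 24), with 1.93 as the lowest and 2.02 as the highest. The SD of the log2 ratio was 0.014, against 0.013 from counting alone. Of the 8256 pairs of members this was the only one whose ratio varied by less than 2 times counting error, and the median pair varied by 7.56 times. A ratio of 2 genes within a library does not depend on the scaling. The counting step is not described in the sources used here, so whether these 2 genes share reads was not tested.

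The members with the largest SD after scaling were ENSGALG00010000003 (0.74 on the log2 scale), ENSGALG00010000005 (0.73) and ENSGALG00010012703 (0.73). The first 2 are members of the run, and they were high and low in the same libraries. ENSGALG00010000005 averaged 4846 ± 3629 CPM (4 h), 3872 ± 1707 CPM (6 h), 3068 ± 742 CPM (8 h) and 3927 ± 1750 CPM (11 h), with the SD over 6 libraries. ENSGALG00010000003 averaged 3157 ± 2394 CPM (4 h), 2512 ± 1230 CPM (6 h), 1829 ± 485 CPM (8 h) and 2660 ± 1137 CPM (11 h), with the SD over 6 libraries. Replicate 2 at 4 h was the highest library for both, with 11539 and 7605 CPM. The differences between times are smaller than the SD within 4 h in both genes.

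The deviations of these 2 genes from their time means correlated at r = 0.962 over the 24 libraries on deposited CPM. With the 12 other members of the run the median r was 0.159, while the median among those 12 was 0.649 (pairs from -0.613 to 0.977). Of the 14 members of the run, 12 had their lowest CPM in replicate 3 at 4 h. These correlations were not computed without that library, so its part in them was not tested. ENSGALG00010012703 averaged 952 ± 673 CPM (4 h), 1591 ± 1000 CPM (6 h), 1025 ± 705 CPM (8 h) and 626 ± 261 CPM (11 h), with the SD over 6 libraries. It reached 3247 CPM in replicate 5 at 6 h and 2445 CPM in replicate 2 at 8 h, both libraries under 1000000 reads, and 2192 and 2211 CPM in replicate 2 at 4 h and replicate 2 at 6 h. Its lowest library had 322 CPM, and its mean of 1049 CPM passed the threshold through a few libraries.

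Correlations between members also followed the scaling. Over all 8256 pairs the median r of the deviations was 0.195 on deposited CPM and 0.646 after TMM scaling, with 38 and 747 pairs above 0.9. All points share the libraries and their scaling factors, so these values describe the libraries and carry no p.

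A set of 4 members, singled out after their values were seen, had 2 levels. In ENSGALG00010011192, 11 libraries lay between 5682 and 6825 CPM and 13 between 2556 and 3653 CPM. In ENSGALG00010016308 the same 11 lay between 5421 and 6586 CPM and the same 13 between 2654 and 3648 CPM. ENSGALG00010006178 (4277 to 6148 CPM, and 2422 to 3525 CPM) and ENSGALG00010006252 (1074 to 1544 CPM, and 608 to 932 CPM) had the same division. The mean of the 11 was 1.86, 1.84, 1.87 and 1.77 times that of the 13 in these 4 genes. The high level was found in 3 of 6 libraries (4 h), 3 of 6 (6 h), 3 of 6 (8 h) and 2 of 6 (11 h), so each time held both. Among the 7209 genes with at least 10 CPM, 22 were higher in these 11 libraries without overlap, the 4 members included, and 33 were lower, 0 of them members. These counts are a description, since the division was taken from the members' own values.

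**Figure D4:**
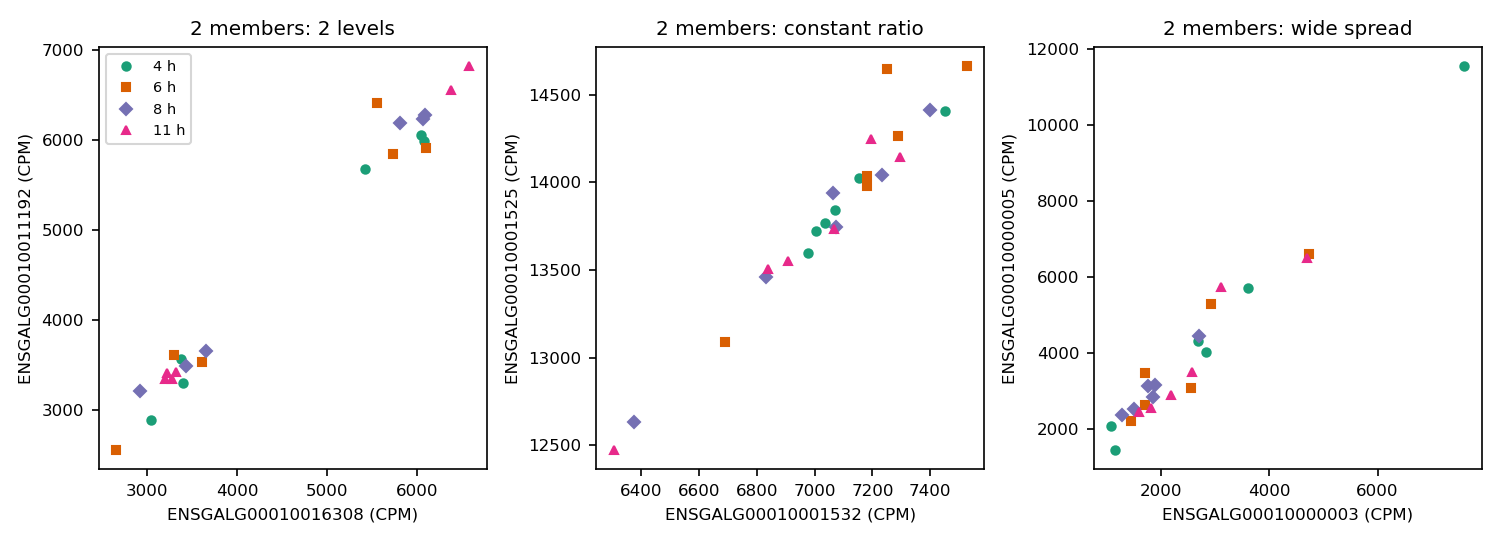
CPM of 3 pairs of members, 1 point per library and 1 marker per time. On the left, ENSGALG00010011192 against ENSGALG00010016308 forms 2 clouds that each hold all 4 times; in the middle, ENSGALG00010001525 against ENSGALG00010001532 keeps a ratio of 1.93 to 2.02; on the right, ENSGALG00010000005 against ENSGALG00010000003 spreads widely, with replicate 2 at 4 h at the upper end.

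Over the 4 times, 0 of the 129 members differed at an adjusted p under 0.05 (limma with Benjamini-Hochberg adjustment over 13783 genes, all 24 libraries in 1 fit). The background was 0.00%, with 0 genes called in all. Of the members, 18 (14.0%) had an unadjusted p under 0.05, against 7.44% of all genes tested (1026 genes). With library size as the only scaling these were 28 members (21.7%, against 7.35% of all genes), and with a term for the range of library numbers 5 (3.88%, against 4.22%). Only replicate 1 at 6 h and replicate 6 at 8 h part that term from time. With it, a member's median SE rose from 0.13 to 0.19 for 6 h against 4 h and for 11 h against 8 h. Whether this lowered the count to 5 was not tested. By limma-voom on reads recovered from the CPM, 0 members were called (background 0.00726%) and 20 had an unadjusted p under 0.05 (15.5%, against 7.79% of all genes). The smallest adjusted p of a member was 0.61 (limma).

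At 11 h against 4 h, again 0 of 129 members passed (limma, adjusted p; background 0.00%), and limma-voom called 0. An unadjusted p under 0.05 was found for 9 members (6.98%), against 3.80% of all genes. Of these, 8 were higher at 11 h (background 2.23%) and 1 was lower (background 1.57%). Without replicate 3 at 4 h there were 5 (3.88%, against 3.22% of all genes), and by limma-voom 15 (11.6%, against 7.28%). Without the 3 libraries under 1000000 reads there were 19 (14.7%, against 6.41%), and with library size as the only scaling 17 (13.2%, against 3.98%). The log2 difference was positive in 104 members and negative in 25, with a median of 0.12, against -0.0089 over all genes, of which 48.8% were higher. Members rose and fell together between libraries on this scale (median r of 0.646 over pairs), so they are not independent. Such splits, here and for the single steps, are descriptions and carry no p. Without replicate 3 at 4 h the members' median was 0.076, with 99 members higher and 30 lower, against -0.011 over all genes (48.3% higher). With library size as the only scaling the split was 88 to 41 and the median 0.066, and all genes shifted to -0.061 (41.9% higher). The median SE of a member's difference was 0.13. Without the 3 libraries under 1000000 reads, all of 6 h or 8 h, that SE was 0.11 and the members' median difference 0.13. The fit shares 1 error over the 4 times, although the spread was not equal. The members' median SD after scaling was 0.23 (4 h), 0.26 (6 h), 0.25 (8 h) and 0.12 (11 h).

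The 2 members with the smallest p among higher values, and the 2 among lower values, were as follows. ENSGALG00010018815 had 2092, 1634, 1892, 2024, 1956 and 2260 CPM at 11 h, against 1193, 1372, 952, 1538, 1366 and 1461 CPM at 4 h. All 6 libraries at 11 h lay above all 6 at 4 h. The difference was 1.58-fold (log2 difference 0.66 ± 0.18, SE, adjusted p = 0.64, limma) and did not pass. Its means and ranges over 6 libraries were 1314 CPM (4 h, 952 to 1538), 1473 CPM (6 h, 1017 to 2005), 1735 CPM (8 h, 1317 to 2100.5) and 1976 CPM (11 h, 1634 to 2260), so the means were in the order of the hours and the ranges of neighbouring times overlapped. Per hour its log2 value was higher by 0.098 ± 0.023 (SE of the slope), with an adjusted p of 0.35 (limma), which did not pass either.

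ENSGALG00010005176 had 1310, 1064, 1181, 1169, 1296 and 1147 CPM at 11 h, against 1049, 975, 671, 954, 782 and 853 CPM at 4 h. Its groups did not overlap, though the nearest libraries were 1064 and 1049 CPM (log2 difference 0.51 ± 0.18, SE, adjusted p = 1.00, limma). ENSGALG00010028024 had 727, 796, 1033, 821, 928 and 630 CPM at 11 h, against 1093, 1743, 1427, 972, 937 and 802 CPM at 4 h. These groups overlapped (log2 difference -0.41 ± 0.15, SE, adjusted p = 1.00, limma). ENSGALG00010019040 had 1242, 1920, 1963, 1634, 1681 and 1763 CPM at 11 h, against 2426, 2022, 2102, 1861, 1785 and 2063 CPM at 4 h, again with overlap (log2 difference -0.21 ± 0.12, SE, adjusted p = 1.00, limma). Groups of deposited CPM did not overlap in 3 members, all higher at 11 h (2.33%, against 0.203% of all genes), and in 0 that were lower (background 0.305%). The third was ENSGALG00010002566, named after its values were seen, with 6659 to 8145 CPM at 11 h and 5039 to 6560 CPM at 4 h.

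The data bounded changes in the members more tightly than in most genes. The 95% interval of the difference between 11 h and 4 h lay within 1.5-fold in both directions for 111 members (86.0%, against 18.1% of all genes tested) and within 1.25-fold for 28 (21.7%, against 1.60%). It lay within 2-fold for 127 members, against 45.5% of all genes. With library size as the only scaling, 117 members were within 1.5-fold (background 17.9%). Each interval rests on the error shared by the 4 times and holds for its own gene, without correction for their number. Members have many more reads than the rest, so their shares and those of all genes were not measured with the same precision. The genes at 100 to 1000 CPM had nearly the members' SD after scaling (median 0.25, against 0.23). Their intervals were not counted apart, so the contrast with all genes is not one particular to the members.

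**Figure D5:**
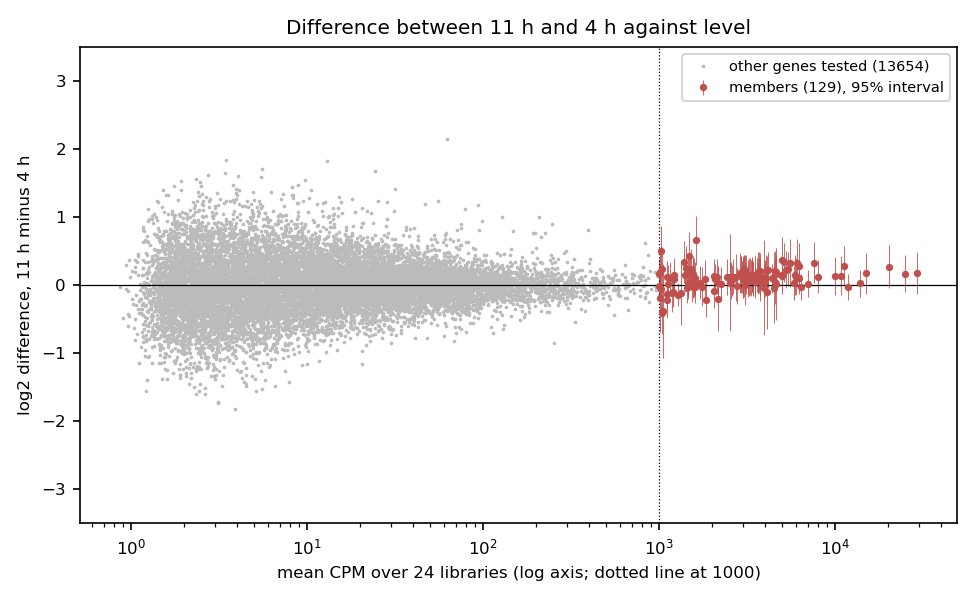
Log2 difference of 11 h minus 4 h against mean CPM (log axis) for the 13783 genes tested, grey for other genes and red for the 129 members with 95% intervals; the dotted line marks 1000 CPM. The members lie in a narrow band with a median of 0.12, and none passed the adjusted test.

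The single steps gave the same count of 0 members by limma and by limma-voom. For 6 h against 4 h (background 0.00%), 9 members (6.98%) had an unadjusted p under 0.05, against 6.06% of all genes, and 9 (6.98%, against 6.06%) by limma-voom. The members' median log2 difference was -0.098, against -0.076 for all genes, with 21 members higher and 108 lower (41.4% of all genes were higher). Without the 3 libraries under 1000000 reads the members' median was -0.0033, with 59 higher and 70 lower. All genes then had a median of -0.033 (46.0% higher). With the library number term the members' median was 0.059, with 95 higher and 34 lower. All genes then had a median of 0.039 (54.1% higher). Leaving out the shallow libraries thus shrank this step in the members, and only the library number term reversed its direction. The median SE of a member's difference was 0.19 with that term and 0.13 in the main fit. All genes moved the same way under both choices. Without replicate 3 at 4 h the members' median was -0.13, with 11 higher and 118 lower, against -0.086 for all genes (40.9% higher). For 8 h against 6 h (background 0.00%), 3 members (2.33%) had an unadjusted p under 0.05, against 8.48% of all genes, and 5 (3.88%, against 4.73%) by limma-voom. The median was 0.05, against -0.018 for all genes, with 93 members higher and 36 lower (47.9% of all genes higher). Without the 3 shallow libraries it was 0.11, against 0.043 for all genes, with 117 members higher and 12 lower (54.7% of all genes higher). In that setting 8 members (6.20%, against 6.55% of all genes) had an unadjusted p under 0.05.

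For 11 h against 8 h (background 0.00%), 13 members (10.1%) had an unadjusted p under 0.05, against 5.91% of all genes, and 10 (7.75%, against 4.82%) by limma-voom. All 13 were higher at 11 h (background 4.49%). The median was 0.15, against 0.097 for all genes, with 107 members higher and 22 lower (60.9% of all genes were higher). Without the 3 libraries under 1000000 reads 2 members (1.55%, against 4.11% of all genes) had an unadjusted p under 0.05, and the median was 0.016, against 0.0030 for all genes, with 77 members higher and 52 lower (50.3% of all genes higher). With the library number term 1 member (0.775%, against 2.02%) did. The median was then 0.024, against -0.014 for all genes, with 85 members higher and 44 lower (48.6% of all genes higher). The median SE of a member's difference was 0.19 with that term and 0.13 without it. Only replicate 1 at 6 h and replicate 6 at 8 h part the term from time. Counts with and without the term were therefore not reached at the same precision. A slope per hour was called in 0 members by limma (background 0.00%) and by limma-voom. It had an unadjusted p under 0.05 in 11 members (8.53%), against 4.52% of all genes, and in 25 (19.4%, against 7.51%) by limma-voom. The slope was positive in 10 of the 11 (background 2.65%) and negative in 1 (background 1.87%). Without replicate 3 at 4 h these were 5 (3.88%, against 4.11% of all genes), and without the 3 shallow libraries 24 (18.6%, against 6.93%).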

How the data were processed

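The deposited values are natural log values, ln(CPM + 1), since exp(value) - 1 sums to 1000000 in every column. Per the submitters' processing notes, BWA 0.7.17-r1188, Salmon and fastp 0.21.0 were used. For their roles, as for genome build and annotation, the answer is not given in the sources used here. Values were whole multiples of 1 read for 99.9995% of 406811 values above 0 (within 0.01 read), so reads were recovered for depth, scaling and limma-voom. Log values, the scale of the deposited unit, entered the main test, and limma-voom on the recovered reads was an alternative.

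Tests used limma 3.58.1 in R 4.3.3 on log2(CPM / TMM factor + 1) with an intensity trend (30% of M and 5% of A trimmed). Testing needed at least 2.26 CPM, which is 10 reads at median depth, in 6 libraries and a total of 15 reads; 13783 genes passed, all 129 members included. P-values were adjusted by Benjamini-Hochberg over all of them, with a threshold of 0.05. The procedure was run on simulated reads drawn independently for each gene. That run does not cover genes that vary together, as the members do, or effects of library number.

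Members, lists and rules were chosen with earlier results of these data known. Genes were named by a rule: the 10 highest members, 3 on each side of the threshold, the 3 largest and 3 smallest SD, and the 2 higher and 2 lower members with the smallest p at 11 h against 4 h. The rest of the 33 named genes were chosen after their values were seen. Gene lists were not evaluated, because 0 identifiers matched a name. No 2 libraries of a time were copies (chi-square per degree of freedom of at least 8.73). Alternatives covered scaling, filter, pseudocount, limma-voom, replicate block, library number and left-out libraries.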

Additional observations from a re-analysis of the deposited data

Results flagged for a closer look

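In 152 sets of 6 libraries (depth, genes detected, 3 shares and 33 named genes at each time), 16 had a lowest or highest library far from the other 5. Chance gives about 1 in 20 only for independent sets that were not picked for their values. These sets share libraries, and some of the genes were picked for their values, so that rate is no measure of the 16. Replicate 3 at 4 h stood apart in 5 of the 16. The 14 members of the run had 9.72% of its reads (others 14.5% to 16.1%), ENSGALG00010000007 had 6477 CPM (10337 to 12207), ENSGALG00010000034 had 5752 CPM (9570 to 10644) and ENSGALG00010001532 had 7450 CPM (6978 to 7154). ENSGALG00010004003, which lies just outside the threshold of 1000 CPM, had 1153 CPM there (890 to 978).

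Libraries under 1000000 reads stood apart in 6 sets. Replicate 5 at 6 h had 8733 CPM of ENSGALG00010000007 (others 10717 to 11659) and 2003 CPM of ENSGALG00010028024 (705 to 1050). Replicate 5 at 8 h had 8898 CPM of ENSGALG00010000018 (10853 to 11784) and 1284 CPM of ENSGALG00010004003 (975 to 1059). Replicate 2 at 8 h had 2445 CPM of ENSGALG00010012703 (551 to 881) and 2381 CPM of ENSGALG00010019040 (1626 to 1900).

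The remaining 5 sets were single libraries of ordinary depth. Replicate 4 had the highest share of the run at 8 h, 17.0% (others 15.4% to 15.8%), and at 11 h, 17.2% (14.8% to 15.7%), where it also had 13835 CPM of ENSGALG00010000007 (10426 to 11555). Replicate 6 at 11 h had 9720 CPM of ENSGALG00010001032 (10892 to 11326), and replicate 5 at 4 h had 2978 CPM of ENSGALG00010003868 (1854 to 2228). ENSGALG00010003868 was named after its values were seen.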

How the results depend on the processing

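Under each alternative run, 0 members were called in each of the 6 tests (12 to 14 alternatives per test). Over all genes, counts above 0 were found for any time by limma-voom (1) and without the 3 libraries under 1000000 reads (2), for 11 h against 4 h with only the 12 libraries of the 2 times (5) and only the lower number range (6), and for the slope at a pseudocount of 5 (1), without the 3 shallow libraries (1) and in the lower number range (5). With the replicate number as a block, 0 genes were called in each test, and an unadjusted p under 0.05 was found for 22 of the 129 members at 11 h against 4 h (against 4.08% of all genes), 13 at 6 h against 4 h (all genes 6.45%), 5 at 8 h against 6 h (all genes 8.60%), 38 at 11 h against 8 h (all genes 6.88%), 35 at any time (all genes 8.20%) and 25 for the slope (all genes 4.71%). Whether the replicate numbers pair the libraries is not stated in the labels. Same-numbered libraries of 4 h and 11 h have library numbers close to each other. Most libraries of 6 h and 8 h have numbers in the upper range, away from those of the same-numbered libraries of 4 h and 11 h. The block thus joined libraries of both ranges. Deviations of same-numbered libraries correlated above 0.1 in 9 of 36 pairs, and 3 of 24 libraries correlated best with their own number. That check pooled all 4 times, and a lack of correlation cannot exclude a pairing. A median, a TMM-scaled mean, pooled reads or leaving out the shallow libraries gave 125 to 130 members, and 109 genes were above 1000 CPM in every library; a level of 500 CPM gave a share of 56.5% and a level of 2000 CPM 45.1%. The members' median SD of 0.23 was 0.15 with library size as the only scaling; the cause was not tested. ENSGALG00010018815 kept its direction in 14 of 14 alternatives (log2 differences between 0.53 and 0.66; adjusted p between 0.074 and 1.00, limma), and the lowest difference was that without replicate 3 at 4 h. Leaving out that replicate, and the spread on other scalings, were chosen after seeing the data.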
